A study of Mus musculus with 4 samples.

Results

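Smooth muscle contractile genes encode the actin, myosin and anchoring proteins with which smooth muscle cells (SMCs) of arteries, veins and airways generate force. The 10 genes described here were taken by symbol, and all 10 were found among the 32285 genes of the count matrices: Acta2, Tagln, Cnn1, Myh11, Myl9, Des, Lmod1, Actg2, Smtn and Synpo2. Their transcripts were counted by single-nucleus RNA-Seq in the lungs of 2 WT mice (WT1 and WT2) and 2 VEcad-TRF2DN-Tg mice (Tg1 and Tg2). All 4 were C57/BL6J mice aged 8 to 9 weeks, and the study describes its mice as male and the lungs used here as exposed to chronic hypoxia in both genotypes. In the Tg mice, the VE-cadherin promoter drives TRF2DN, a dominant-negative TRF2 (a protein that caps telomeres), in endothelial cells (ECs), so that the transgene is expressed by ECs and not by SMCs. The study asked how ECs made senescent in this way affect the SMCs and pericytes of the pulmonary vessels, and whether SMCs become more abundant. With 2 mice of each genotype, a p-value measures only the spread between these mice.

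In smooth muscle, calcium entry activates myosin light chain kinase, which phosphorylates the regulatory light chain and lets myosin pull on actin filaments. The genes of this apparatus are known targets of serum response factor (SRF), which binds a short AT-rich element called the CArG box and is assisted by myocardin or the myocardin-related factors. In lung vessels under hypoxia, contractile cells are known to extend into small arteries that are normally free of muscle, and pericytes carry part of the same program.

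The members have 4 kinds of roles. Acta2 (smooth muscle alpha actin; chr19:34240336-34255585 of GRCm38.p6, 15.2 kb) and Actg2 (smooth muscle gamma actin; chr6:83512909-83536251, 23.3 kb) form the thin filament. Lmod1, which nucleates actin filaments, spans 43.3 kb on chromosome 1. Tagln (transgelin, 6.4 kb on chromosome 9), Cnn1 (calponin, 10.0 kb on chromosome 9) and Smtn (smoothelin, 21.8 kb on chromosome 11) encode proteins bound to actin. Myh11, the smooth muscle myosin heavy chain, is the motor and spans 97.7 kb on chromosome 16 (14194527 to 14292188), and Myl9, a regulatory light chain, spans 6.2 kb on chromosome 2 (156775408 to 156781657). Des (desmin, the intermediate filament of muscle; 8.3 kb on chromosome 1) and Synpo2 (an actin-bundling protein of muscle; 159.6 kb on chromosome 3) belong to the anchoring skeleton. Lengths are given because reads on introns were counted. Acta2 and Actg2 encode nearly the same protein, and whether reads were shared between the 2 genes was not tested.

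The CArG box was searched, by its name's consensus of 10 bases that reads the same on both strands, in the 250 bases before the transcript start given by RefSeq (GRCm38.p6), which were at hand for 7 of the 10 members. Among 32851 such promoters, 1.47% held an exact match and 18.6% a match with at most 1 base changed. Myl9 held the exact match found among these 7 members, 161 bases before the start, and a match with 1 base changed 99 bases before it. Acta2 held matches with 1 base changed 84 and 34 bases before the start, and Lmod1 held 2 such matches. Those of Myl9 and Acta2 are shown with 10 bases on each side, since these genes rose in the transgenic droplets described below. Capitals mark the match, and each sequence runs 5′ to 3′ on the strand of its gene.
Myl9 box at 161 bases (chr2:156775293-156775322, plus strand, outside the annotated gene): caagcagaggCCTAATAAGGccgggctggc
Myl9 box at 99 bases (chr2:156775355-156775384, plus strand, outside the annotated gene): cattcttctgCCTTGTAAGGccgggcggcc
Acta2 box at 84 bases (chr19:34255438-34255467, minus strand, within the UTR of a transcript with an earlier start): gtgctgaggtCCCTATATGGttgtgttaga
Acta2 box at 34 bases (chr19:34255388-34255417, minus strand, within that UTR): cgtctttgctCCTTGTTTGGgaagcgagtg
A match describes the letters of the window only, and Cnn1, Des, Smtn and Synpo2 held none in theirs.

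Droplets and nuclei were compared, since the matrices hold every barcode and not only nuclei. Droplets with 300 to 800 unique molecular identifiers (UMIs, each one captured transcript) stood for the RNA free in the suspension, and numbered 7688 and 10371 in WT and 18387 and 2732 in Tg mice. Barcodes with 1500 or more UMIs numbered 26933 and 38543 in WT and 25269 and 44000 in Tg mice. Of these, 84.2% and 85.4% in WT and 63.4% and 73.3% in Tg mice held too few marker transcripts for a cell class. How many of those hold a nucleus was not determined. The genotypes thus differed in this share, and its part in the comparisons over all barcodes was not tested. Between the 2 ranges, barcodes with over 800 and up to 1200 UMIs numbered 26497 and 13092 in WT and 29568 and 17126 in Tg mice. The remaining ones were assigned to classes from markers that include no member. Between any pair of libraries, 176 to 475 barcodes were shared. The share of free RNA in the EC-like class, judged from the club cell gene Scgb1a1, was 43.4% and 40.8% in WT and 29.9% and 31.0% in Tg mice. Levels are given as CPM, the UMIs of a gene per 1000000 UMIs of the same set. The transgene has no row of its own, and whether its reads were counted as Terf2 was not determined. Terf2 stood at 52.4, 53.1, 49.0 and 53.7 CPM in the EC-like nuclei of WT1, WT2, Tg1 and Tg2, and so checks no label.

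Few nuclei passed the marker rule for SMCs in any of the 4 libraries, in which most barcodes received no class. Only 2, 1, 2 and 2 nuclei of WT1, WT2, Tg1 and Tg2 passed as SMC-like, among 4156, 5451, 8842 and 11198 nuclei with a class. Their share was 0.0332% ± 0.0211 in WT and 0.0202% ± 0.00336 in Tg mice (mean ± SD, n = 2 each). The difference of -0.0130 percentage points gave p = 0.67 in a two-sided exact permutation test, in which 2 mice against 2 cannot go below 0.33. In WT1 the 2 nuclei give an exact (Clopper-Pearson) 95% interval of 0.00583% to 0.174%, which covers counting error only. The share was 0 in both WT mice and 0.0289 points higher in the Tg mice when only nuclei with at least 2500 UMIs were kept. No comparison of SMC numbers between the genotypes could therefore be read from so few nuclei.

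By Scgb1a1, free RNA made up 79.7% and 100% of the SMC-like sums of WT1 and WT2 and 16.0% and 29.5% of those of Tg1 and Tg2, estimates that rest on 45, 36, 230 and 107 UMIs in 1 or 2 nuclei each.

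Even these 7 nuclei held few contractile transcripts. In 4 of the 7 no UMI of any member was counted, while the others held 5, 11 and 15. The nucleus with 15 was from Tg2 and carried 4 UMIs of Myh11, 3 of Acta2, 2 each of Lmod1, Actg2 and Synpo2, and 1 each of Cnn1 and Smtn. That with 11 was from Tg1 and carried 3 of Myh11, 3 of Acta2 and 2 of Tagln among its 6 members with a UMI. No member took part in the SMC-like label, and the members are described below in other classes and in the free RNA.

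Among 15 classes with at least 10 nuclei in every mouse, Myh11, Des, Lmod1 and Synpo2 stood highest in pericyte-like nuclei, the mural cells of capillaries. This class held 45, 46, 77 and 112 nuclei in WT1, WT2, Tg1 and Tg2, and was led by Trpc6. Trpc6 is among the markers that defined the class, which summed to 4492 to 5107 CPM, so that both are high by construction. Across the 15 classes, Myh11 reached 123 ± 19.7 CPM in pericyte-like nuclei (mean ± SD, n = 4 mice), 19.6 times the next class, the lymphatic EC-like nuclei at 6.31 ± 5.40 CPM. The 2 classes did not overlap over the 4 mice. Des reached 49.0 ± 21.3 CPM, 5.59 times the level of alveolar fibroblast-like nuclei (8.77 ± 4.92 CPM), again with no overlap. Lmod1 reached 28.8 ± 12.3 CPM, 11.2 times the lymphatic EC-like level of 2.58 ± 3.26 CPM, and these did not overlap either. Synpo2 stood close behind in mesothelial-like nuclei, the covering of the lung, at 24.8 ± 3.18 CPM against 32.4 ± 4.01 CPM in pericyte-like nuclei. The ranges of Synpo2 in these 2 classes did not overlap. Adventitial fibroblast-like nuclei (23.7 ± 12.6 CPM, from 9 UMIs) ranged from 7.71 to 33.8 CPM and overlapped both, with pericyte-like nuclei at 27.3 to 37.0 CPM. Classes were made from the same nuclei, so that these levels are a description without a test. Smaller classes, outside the 15, reached higher levels on few UMIs. In WT1, WT2, Tg1 and Tg2, Myh11 was at 532, 0, 267 and 477 CPM in the SMC-like sums from 2, 0, 3 and 4 UMIs. Synpo2 was at 532, 0, 89.0 and 239 CPM there, from 2, 0, 1 and 2 UMIs. Lmod1 was at 0, 0, 89.0 and 239 CPM there, and Des had no UMI in them. In the cardiac muscle-like sums Des was at 109, 101, 19.9 and 8.89 CPM, from 2, 3, 1 and 1 UMIs, and Synpo2 was at 164, 33.7, 0 and 62.2 CPM, from 3, 1, 0 and 7. The myofibroblast-like sums held Lmod1 at 0, 19.3, 14.6 and 107 CPM, from 0, 1, 2 and 6 UMIs.

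Acta2, Tagln, Cnn1, Actg2 and Myl9 were sparse in these 15 classes. Among them, Acta2 was highest in pericyte-like nuclei at 9.46 ± 9.28 CPM, but this rests on 9 UMIs, and every class overlapped its neighbour in the order. The SMC-like sums, which are outside the 15 classes, stood at 266, 0, 267 and 358 CPM of Acta2 in WT1, WT2, Tg1 and Tg2, from 1, 0, 3 and 3 UMIs. The cardiac muscle-like sums, also outside them, stood at 54.5, 0, 59.6 and 53.3 CPM from 1, 0, 3 and 6 UMIs, and the myofibroblast-like sums at 0, 38.5, 14.6 and 53.5 CPM from 0, 2, 2 and 3 UMIs. Tagln, too, was highest of the 15 classes in pericyte-like nuclei, at 6.88 ± 8.40 CPM from 6 UMIs. Cnn1 had 0 UMIs among 1116115 of the pericyte-like nuclei, which allows a level of up to 2.69 CPM, and its highest class was the ciliated-like one at 1.35 ± 1.04 CPM. Actg2 had a mean under 1 CPM in its highest class, the EC-like nuclei (0.707 ± 0.744 CPM from 16 UMIs), with 1.82 CPM in Tg1. Myl9 was highest in adventitial fibroblast-like nuclei at 12.6 ± 18.5 CPM, which rests on 3 UMIs. None of these 5 genes separated its highest class from the next one.

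Smtn differed from the other members by its place in lymphatic endothelium. It stood at 31.7 CPM in WT1, 18.9 in WT2, 52.1 in Tg1 and 50.9 in Tg2 in lymphatic EC-like nuclei, from 69 UMIs in all. Their mean of 38.4 ± 16.0 CPM was 1.99 times that of pericyte-like nuclei (19.3 ± 5.56 CPM), and the ranges of the 2 classes overlapped. Both Tg mice were above both WT mice in lymphatic EC-like nuclei, by 1.15 on the log2 scale (adjusted p = 0.19, edgeR's quasi-likelihood test with Benjamini-Hochberg adjustment, which applies to every adjusted p below).

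**Figure D1:**
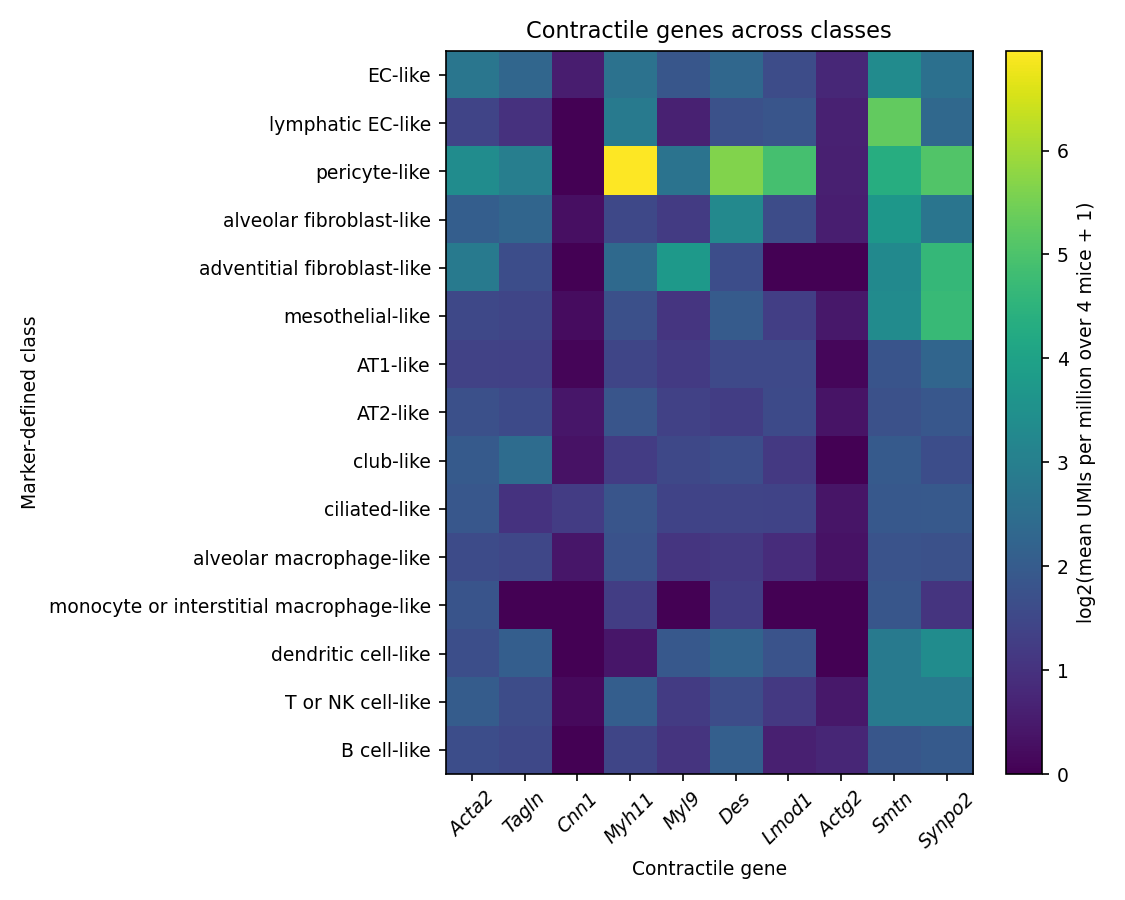
Mean level over the 4 mice of each of the 10 contractile genes (columns) in the 15 classes with at least 10 nuclei in every mouse (rows), as log2(CPM + 1), with lighter, yellower cells for higher levels. The pericyte-like row is the highest for Myh11 (123 CPM), Des (49.0 CPM), Lmod1 (28.8 CPM) and Synpo2 (32.4 CPM), and the lymphatic EC-like row for Smtn (38.4 CPM).

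Within pericyte-like nuclei, neither of the 2 members that could be tested was called between the genotypes. Myh11 was counted 24, 28, 27 and 54 times in WT1, WT2, Tg1 and Tg2, which gave 153, 115, 113 and 113 CPM. Both Tg mice were just under the lower WT mouse, and the difference of -0.11 ± 0.31 (log2, SE) did not pass the test (adjusted p = 0.916), and its sign turned to 0.05 without WT1. The free RNA expected in the same nuclei accounts for under 1 UMI of Myh11 in every mouse (0.21 to 0.44). Des stood at 31.9, 57.5, 75.1 and 31.5 CPM in the same order, so that the genotypes overlapped (0.18 ± 0.57, adjusted p = 0.927), and its sign turned to -0.51 without Tg1. These 2 members passed the filter on low counts and neither was called, where 4.71% of the 5223 genes tested in this class were called.

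The other members of the pericyte-like class were too sparse to be tested. Lmod1 had 19.1 and 20.5 CPM in WT and 45.9 and 29.4 CPM in Tg mice, with no overlap, from 33 UMIs in all. Synpo2 had 31.9, 37.0, 33.4 and 27.3 CPM and Smtn had 12.8, 24.7, 16.7 and 23.1 CPM, both with overlap. Markers of SMCs summed to 89.3, 78.1, 175 and 86.1 CPM here, with 2 to 5 of the 11 markers at 0 in each mouse and Map3k7cl at 0 in all 4. Acta2 thus gave 2, 0, 5 and 2 UMIs in pericyte-like nuclei, which is too few to show a difference of either sign at this depth.

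In the droplets, 3 of the 8 members tested were called higher in the Tg mice. Of these 3, Myl9 passed the filter through the Tg mice alone, so that a higher value in Tg was built into its being tested. The difference was positive for all 8, with a median difference of 1.30 on the log2 scale beside 0.039 over all genes tested. The 3 calls compare with 14.5% of the 15180 genes tested that were called higher in Tg. In bulk sums of this kind, fewer cells of a type and less RNA per cell cannot be told apart.

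Myl9 rose the most of the called members. It was counted 5 and 7 times in the droplets of the WT mice and 93 and 8 times in those of the Tg mice, at 0.900 and 0.980 against 7.38 and 4.10 CPM. The genotypes did not overlap, and the difference was 2.97 ± 0.56 (log2, SE; adjusted p = 0.0204). Acta2 was at 3.96 and 3.50 CPM in WT and at 9.68 and 8.21 CPM in Tg mice, from 22, 25, 122 and 16 UMIs. Again without overlap, it rose by 1.57 ± 0.38 (adjusted p = 0.0319). Tagln was at 2.52 and 2.24 against 6.43 and 5.64 CPM and rose by 1.65 ± 0.43 (adjusted p = 0.0359). DESeq2 called Myl9 alone of the 3, with adjusted p = 0.0545 for Acta2 and 0.0909 for Tagln. The call of Tagln was also lost without WT2 (adjusted p = 0.0501). Without Tg1 no member and no gene at all was called, with 3232 genes at an unadjusted p under 0.05, and without Tg2, whose droplets held few UMIs, Myl9 alone was.

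The remaining droplet members were higher by less or with more spread. Des stood at 1.44 and 3.64 CPM in WT and 6.75 and 6.67 CPM in Tg mice, without overlap, and its difference of 1.65 ± 0.52 did not pass (adjusted p = 0.0573), but did without WT2 (2.48, adjusted p = 0.00684). Smtn, at 4.32, 7.56, 10.3 and 9.75 CPM, differed by 1.03 ± 0.40 (adjusted p = 0.0969), and by 1.49 without WT2 (adjusted p = 0.0285). Synpo2, at 5.22, 4.62, 7.62 and 7.18 CPM, differed by 0.88 ± 0.37 (adjusted p = 0.118). Both kept the genotypes apart without passing the threshold. Myh11 (3.78, 2.38, 6.35 and 2.56 CPM) and Lmod1 (1.98, 1.40, 3.10 and 0.513 CPM) overlapped between the genotypes, with adjusted p = 0.227 and 0.429. Both turned negative without Tg1, Myh11 to -0.16 and Lmod1 to -1.57, on 5 and 1 UMIs of Tg2. Cnn1 and Actg2 did not pass the filter.

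Droplets with over 800 and up to 1200 UMIs, a window added after the data had been seen, gave deeper sums. There 5 members were called, where 17.3% of the 17768 genes tested were called higher in Tg. Acta2 was at 3.59 and 3.78 CPM in WT and 9.37 and 8.29 CPM in Tg mice (1.40 ± 0.30, adjusted p = 0.0188). Myl9 was at 0.992 and 1.00 against 6.86 and 4.52 CPM (2.66 ± 0.42, adjusted p = 0.0113). The levels of both genes were thus close to those of the smaller droplets. Des (1.57 ± 0.46, adjusted p = 0.0424), Actg2 (1.83 ± 0.57, adjusted p = 0.0489) and Tagln (1.33 ± 0.42, adjusted p just under the threshold of 0.05) were called too. Cnn1 was not (2.10 ± 0.66, adjusted p = 0.0504). Actg2 (5, 2, 17 and 10 UMIs in WT1, WT2, Tg1 and Tg2) and Cnn1 (8, 1, 29 and 12) reached the level of the filter in the Tg mice alone. A higher value in Tg was thus built into their being tested.

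**Figure D2:**
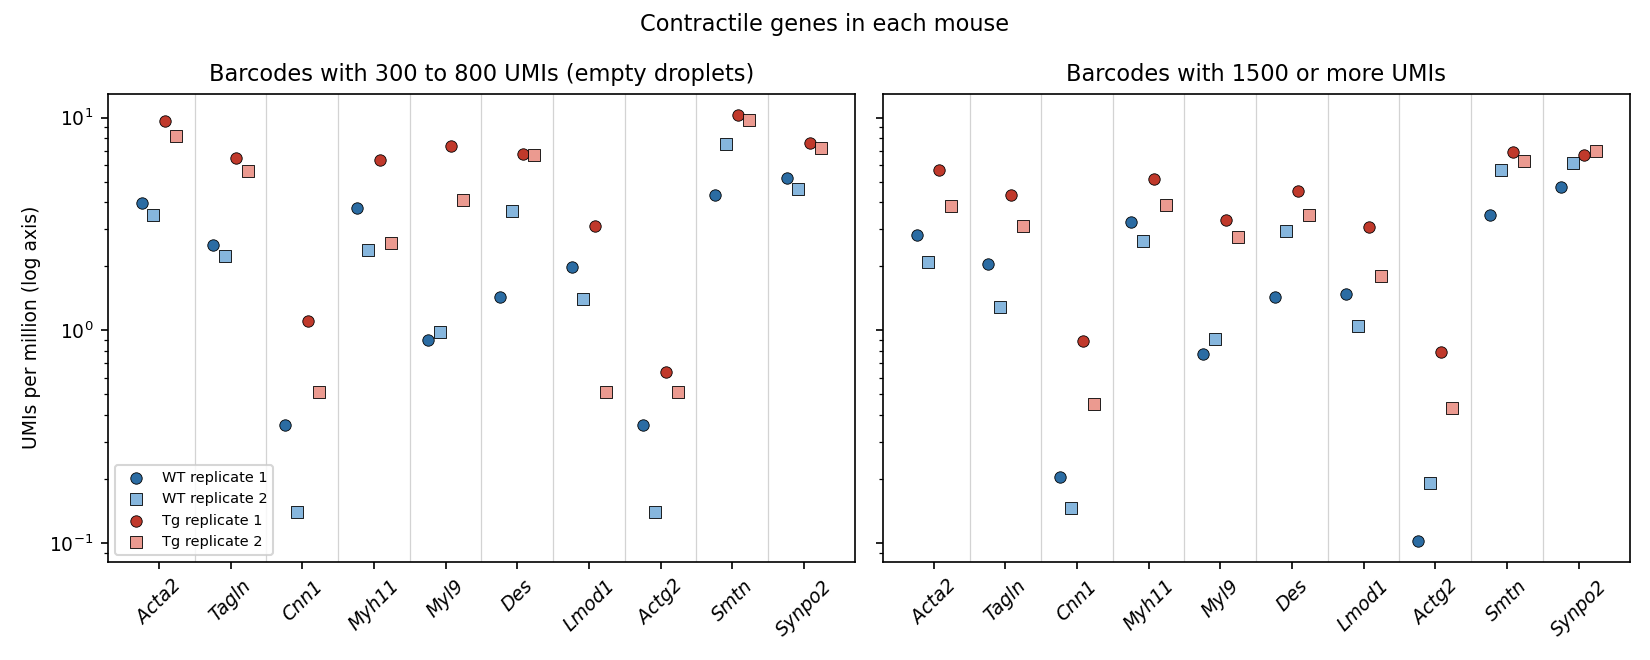
Level of each contractile gene (CPM, log axis) in the droplets with 300 to 800 UMIs and in the barcodes with 1500 or more UMIs, with 1 point per mouse. In the droplets, the 2 Tg mice lie above the 2 WT mice for every gene but Myh11 and Lmod1, with Myl9 at 7.38 and 4.10 against 0.900 and 0.980 CPM.

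Other markers moved with these rises. The 11 SMC markers, which share no gene with the members, summed to 92.7 and 43.5 CPM in the WT droplets and 160 and 101 CPM in the Tg droplets, with at most 1 of them at 0 in a mouse. The 13 pericyte markers summed to 95.9 and 79.1 against 134 and 118 CPM. The sums of both lists were thus above the WT range in the 2 Tg mice, while the 11 cardiac muscle markers overlapped (96.6, 56.1, 76.0 and 67.2 CPM) and the 12 EC markers were lower (1630 and 1247 against 1144 and 1146 CPM). Scgb1a1, the club cell gene from which free RNA was judged, moved as well. It gave 18378 of 2823190 and 21516 of 3368743 UMIs in the EC-like sums of WT1 and WT2. In those of Tg1 and Tg2 it gave 230975 of 6035890 and 113226 of 8423485. The part of these shifts in the rise of the members was not tested.

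Gene length moved with the genotype in the droplets too. Over all genes tested, the median difference between the genotypes was 0.94 for genes under 10 kb, 0.37 for 10 to 20 kb, -0.04 for 20 to 50 kb and -0.73 for genes over 50 kb. Across genes, Spearman's rho between length and difference was -0.64 over 14444 genes and -0.90 over the 8 members, which are no independent replicates. Short members therefore had larger differences, but each of the 8 lay above the median of its own length bin. Myh11 (97.7 kb) and Synpo2 (159.6 kb), higher by 1.01 and 0.88, lay above 97.4% and 96.7% of the genes over 50 kb. Acta2 lay above 91.4% and Myl9 above 96.0% of the genes of their bins, and Des and Tagln above 74.4% and 74.3%, just under the upper quartile of theirs. The part of length in these differences was not tested.

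**Figure D3:**
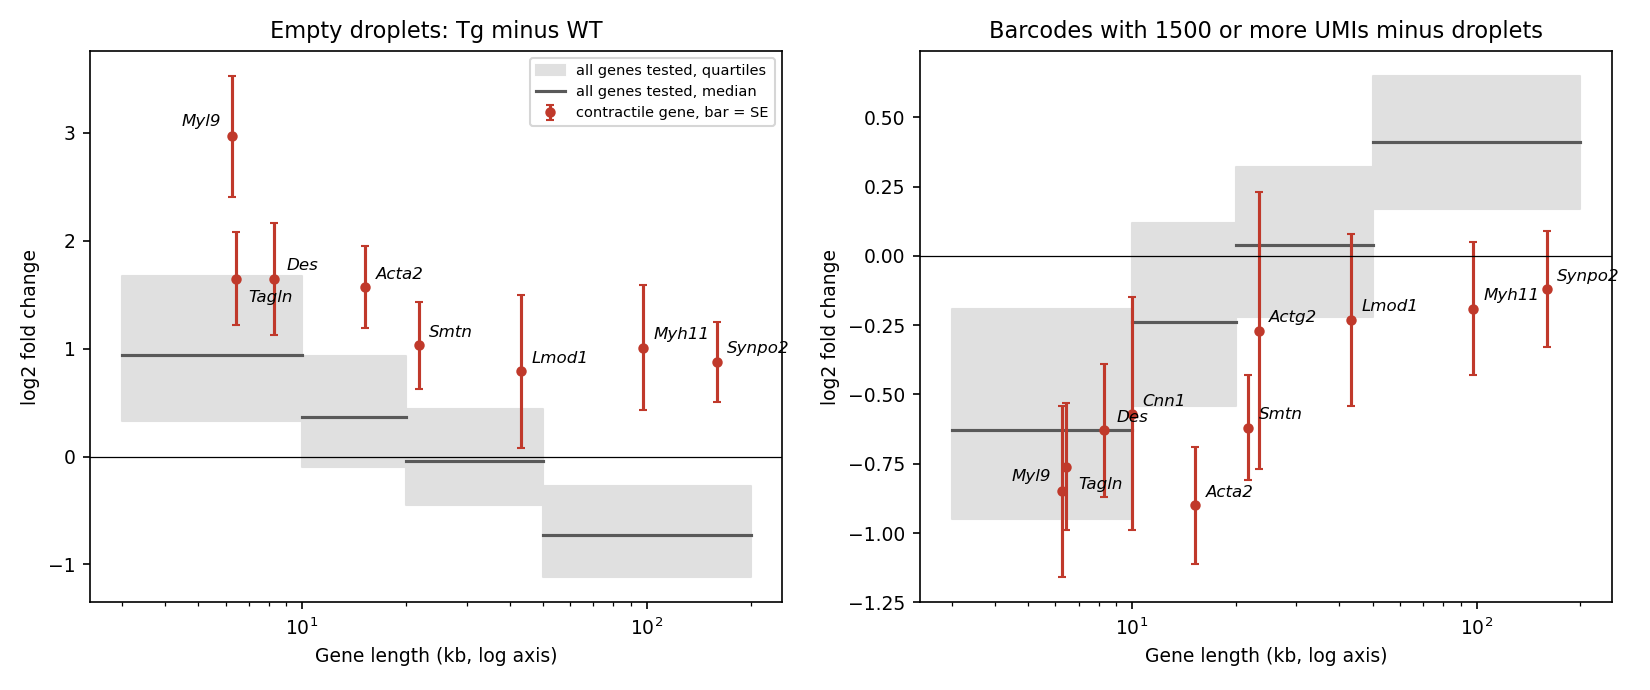
Differences of the contractile genes (log2, points with SE bars) against gene length (kb, log axis), over the median and the quartiles of all genes tested in 4 length bins. On the left (droplets, Tg minus WT) the bin medians fall from 0.94 to -0.73 and the 8 members lie above them; on the right (barcodes with 1500 or more UMIs minus droplets) the medians climb from -0.63 to 0.41 and 9 of 10 members lie below them.

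Of the 10 members, 3 were called lower in barcodes with 1500 or more UMIs than in the droplets of the same mice. All 10 members had a negative difference, with a median of -0.59 beside 0.026 over all genes. Acta2 was lower by -0.90 ± 0.21 (log2, SE; adjusted p = 0.015), Tagln by -0.76 ± 0.23 (adjusted p = 0.0337) and Smtn by -0.62 ± 0.19 (adjusted p = 0.0357). These 3 of 10 compare with 18.3% of the 18855 genes tested that were called lower. Myl9 (-0.85 ± 0.31, adjusted p = 0.0626) and Des (-0.63 ± 0.24, adjusted p = 0.0724) did not pass, and Cnn1, Actg2, Lmod1, Myh11 and Synpo2 lay between -0.57 and -0.12. Without Tg1, Acta2 alone was called, and without Tg2 neither any member nor any other gene, with 5406 genes at an unadjusted p under 0.05.

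Length moved with this comparison as well, in the opposite direction. The median difference of all genes climbed from -0.63 under 10 kb to 0.41 over 50 kb, with a rho of 0.62 over 17193 genes and 0.85 over the 10 members. Against the genes of its own bin, Des was at the median, while Myh11 lay above only 5.9%, Smtn above 6.1%, Acta2 above 6.8% and Synpo2 above 8.0%. The long members Myh11 and Synpo2 were thus not called as lower, but stood low among genes of their length. The part of length in these differences was not tested either.

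Over all barcodes with 1500 or more UMIs, every member was higher in the Tg mice and none passed the test. The median difference of the 10 was 0.89 beside 0.021 over all genes. The count of 0 calls by edgeR compares with 4.08% of the 21018 genes tested, called in either direction. Of the 10, 5 had an unadjusted p under 0.05, beside 28.3% of all genes, and DESeq2 called 1, Myl9, beside 15.6% of all genes in either direction. Myl9 was counted 53, 99, 247 and 391 times in WT1, WT2, Tg1 and Tg2, at 0.777, 0.906, 3.29 and 2.75 CPM, and differed by 1.78 ± 0.34 (adjusted p = 0.0513). The 2 Tg mice were thus well above the WT mice, at the threshold of the test. Acta2 was at 2.80, 2.10, 5.69 and 3.86 CPM (0.90 ± 0.35, adjusted p = 0.168) and Tagln at 2.05, 1.29, 4.35 and 3.09 CPM (1.10 ± 0.39, adjusted p = 0.148).

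The members with the fewest UMIs had the largest differences. Cnn1 was counted 14, 16, 67 and 64 times (1.87 ± 0.54, adjusted p = 0.105) and Actg2 7, 21, 59 and 61 times (1.93 ± 0.56, adjusted p = 0.104). Both Tg mice were above both WT mice for each of the 10 genes. How many of all genes tested kept the genotypes apart in this way was not counted, so that nothing is read from it. The differences were 0.56 for Myh11, 0.82 for Des, 0.88 for Lmod1, 0.46 for Smtn and 0.27 for Synpo2, none past the test. By length, the bin medians of all genes ran from 0.41 under 10 kb to -0.29 over 50 kb, and all 10 members lay above theirs.

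Among EC-like nuclei, of the cells in which the VE-cadherin promoter is active, 8 members passed the filter on low counts. Of these, Myl9, Des and Lmod1 reached its level in the Tg mice alone, so that a higher value in Tg was built into their being tested. Myl9 was called, 1 of 8, where 7.02% of the 14675 genes tested were called higher in Tg. Myl9 was counted 2 and 1 times in WT and 34 and 33 times in Tg mice, at 0.708 and 0.297 against 5.63 and 3.92 CPM. It rose by 3.20 ± 0.68 (log2, SE; adjusted p = 0.0355), a ratio that rests on 3 UMIs of the WT mice. DESeq2 gave an adjusted p of 0.0682, and the call was also lost when the droplet profile was subtracted (adjusted p = 0.181), at 2500 or more UMIs (0.0537), and without either Tg mouse.

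The actin and desmin transcripts of EC-like nuclei had a like spread. Acta2 was counted 11, 4, 70 and 51 times in WT1, WT2, Tg1 and Tg2, at 3.90, 1.19, 11.6 and 6.06 CPM (1.79 ± 0.63, adjusted p = 0.119). Des was counted 5, 2, 59 and 34 times, at 1.77, 0.594, 9.77 and 4.04 CPM (2.53 ± 0.74, adjusted p = 0.0815). The genotypes did not overlap for either gene, while mice of the same genotype also lay far apart. With a mouse left out, Acta2 ranged from 1.09 to 2.86 and was called without WT1 (adjusted p = 0.000788), and Des ranged from 1.74 to 3.48 and was called without WT1 (0.001) and without WT2 (0.0491). Myh11 (1.42, 3.56, 10.8 and 5.11 CPM; 1.60 ± 0.59, adjusted p = 0.135) and Synpo2 (2.48, 2.97, 8.28 and 5.94 CPM; 1.34 ± 0.44, adjusted p = 0.104) did not overlap either. Myh11 ranged from 0.97 to 2.38 with a mouse left out and was called without WT2 (adjusted p = 0.00874). Tagln (1.09), Lmod1 (0.77) and Smtn (0.49) had smaller differences, and Smtn turned to -0.04 without Tg1. Of the 10 members, Smtn alone overlapped between the genotypes here. How many of all genes tested kept them apart was not counted, so that nothing is read from this. The bin medians by length ran from 0.66 under 10 kb to -0.32 over 50 kb.

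Part of these counts is expected from free RNA. From the droplet profile and the free RNA share of each mouse, 4.85, 4.80, 17.5 and 21.4 UMIs of Acta2 were expected in EC-like nuclei where 11, 4, 70 and 51 were counted. For Myl9, 1.10, 1.34, 13.3 and 10.7 were expected where 2, 1, 34 and 33 were counted. In the Tg mice the counts were thus above this expectation for both genes, and in WT2 below it. Myh11 was counted 4, 12, 65 and 43 times where 4.63, 3.27, 11.5 and 6.70 were expected, and Des 5, 2, 59 and 34 times where 1.76, 5.00, 12.2 and 17.4 were. The expectation depends on 1 gene, Scgb1a1, and on few droplet UMIs of Tg2.

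**Figure D4:**
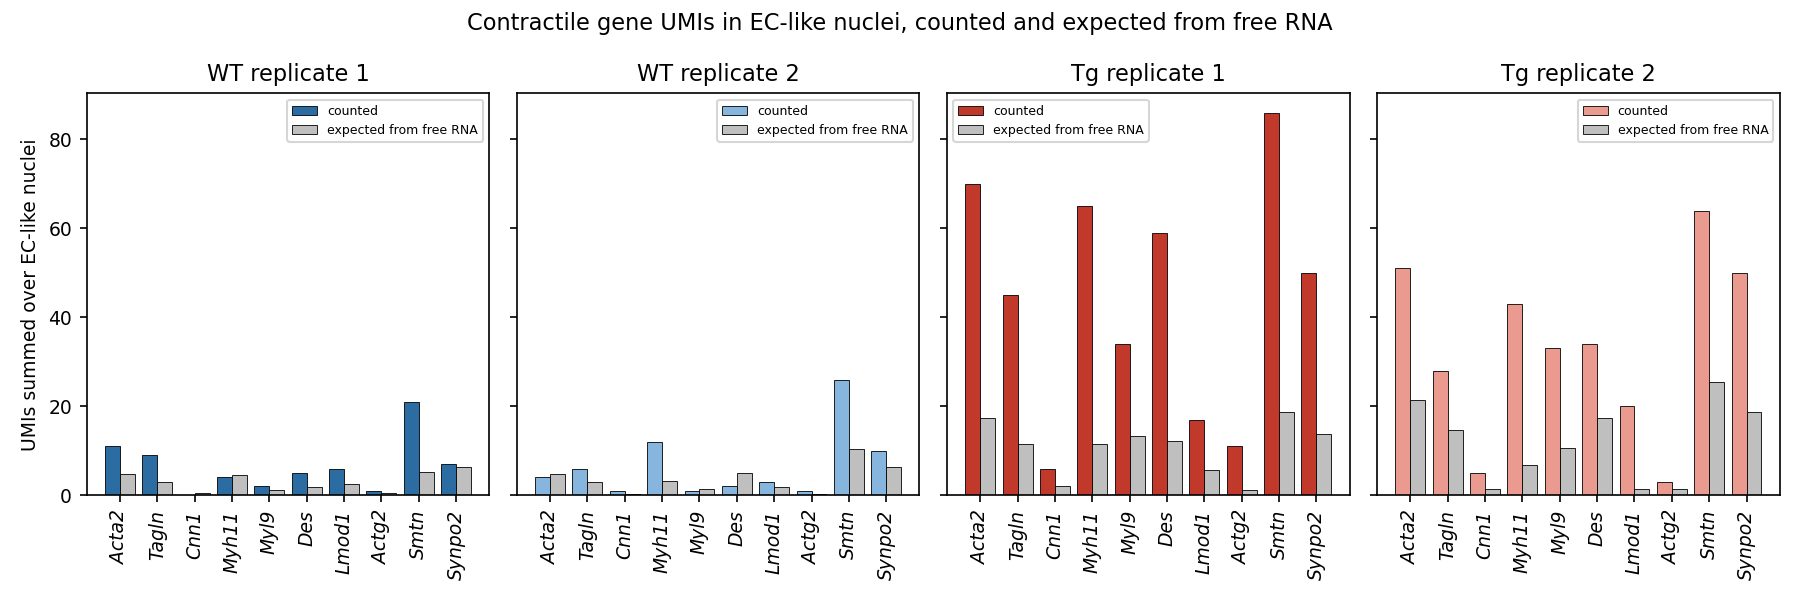
UMIs of each contractile gene in the EC-like nuclei of each mouse, as paired bars for the UMIs counted and those expected from free RNA. In the Tg mice the counted bars are higher than the expected ones, such as Acta2 with 70 and 51 UMIs where 17.5 and 21.4 were expected. In the WT mice some counted bars are higher and some lower.

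The sums of the SMC and pericyte marker lists moved with the members in the EC-like class, and in AT1-like nuclei too. The SMC markers summed to 76.9 and 44.8 CPM in WT and 134 and 83.1 CPM in Tg mice, with at most 1 of 11 at 0. The 13 pericyte markers summed to 85.0 and 70.4 against 156 and 102 CPM, again with at most 1 at 0. Both Tg mice were above both WT mice for each list. The cardiac muscle markers overlapped (108, 51.7, 83.2 and 65.9 CPM), and the EC markers stood at 10620, 9066, 8687 and 8250 CPM. In AT1-like nuclei the SMC markers were at 68.3 and 48.8 CPM in WT and 101 and 91.7 CPM in Tg mice. The pericyte markers there were at 29.8 and 26.5 against 48.7 and 49.0 CPM. In ciliated-like nuclei the pericyte markers were at 32.0 and 37.1 against 48.2 and 55.8 CPM, while the SMC markers overlapped (194, 80.9, 186 and 136 CPM). In each mouse the SMC markers were thus higher there than in pericyte-like nuclei (89.3, 78.1, 175 and 86.1 CPM). The sum of this list is therefore not particular to mural cells in these data. The part of these markers in the differences of the members was not tested.

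**Figure D5:**
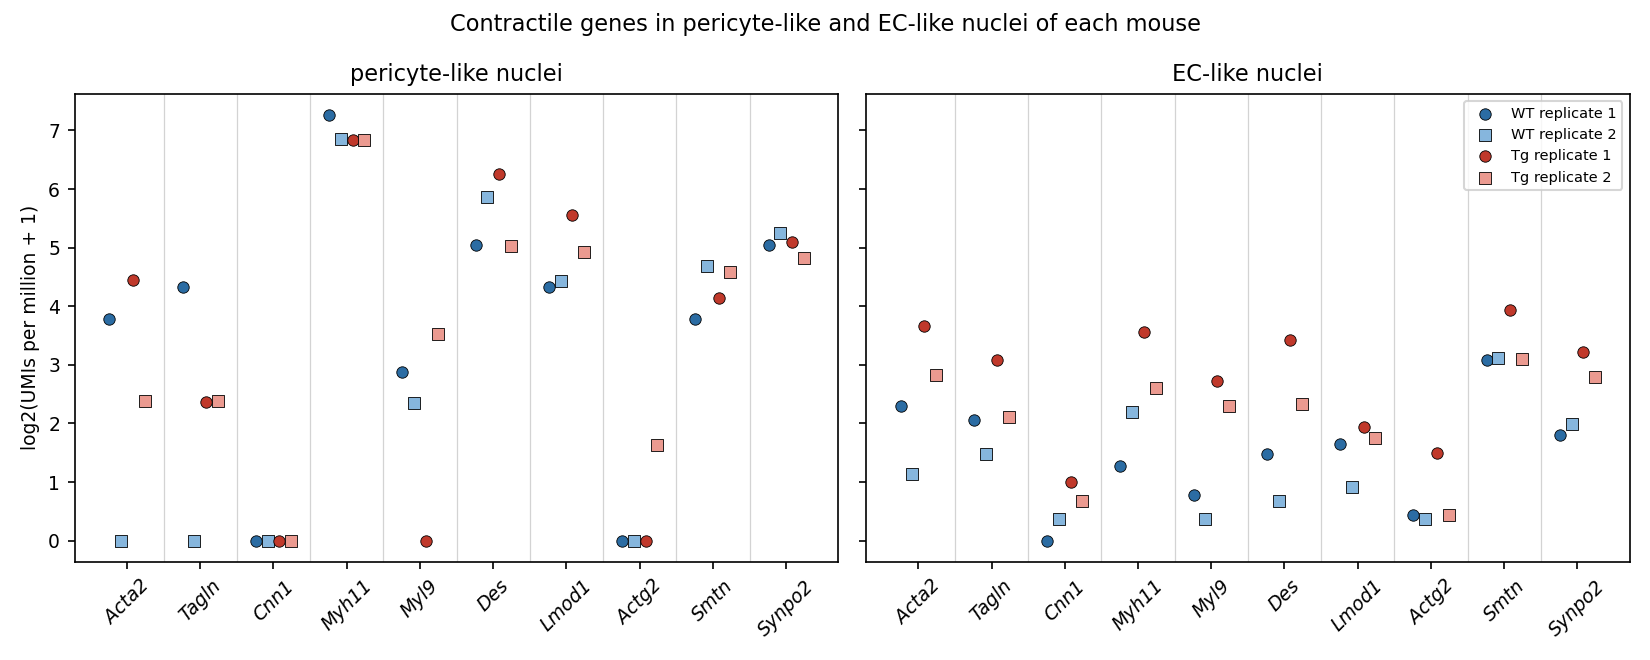
Level of each contractile gene per mouse, as log2(CPM + 1), in pericyte-like and EC-like nuclei. In pericyte-like nuclei, Myh11 lies at 113 to 153 CPM in all 4 mice. In EC-like nuclei the 2 Tg mice lie above the 2 WT mice for every gene but Smtn.

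In the 14 other classes, 24 member tests passed the filter and none was called by edgeR, where 5.83% of all 136813 gene tests in these classes were. Of the 24, 6 had an unadjusted p under 0.05, beside 23.4% of all these gene tests, which also cover classes where no member was tested. Of the 24, 9 reached the level of the filter in the Tg mice alone and 0 in the WT mice alone. Nothing is therefore read from how many were positive or had an unadjusted p under 0.05. Des in AT1-like and Myl9 in ciliated-like nuclei, given below, are among these 9, as is Tagln in AT1-like and AT2-like nuclei, and all of these had such a p. Smtn in mesothelial-like nuclei was at 3.31 and 7.48 CPM in WT and 15.2 and 11.2 CPM in Tg mice (1.17, adjusted p = 0.142; 1.93 without WT2, adjusted p = 0.0227). Synpo2, far more abundant there than in most classes, was at 25.8, 27.1, 26.2 and 20.1 CPM (-0.20, adjusted p = 0.662). The 2 genes thus differed in that Smtn kept the genotypes apart and Synpo2 overlapped between them, a contrast that was not itself tested. Des in AT1-like nuclei, the flat cells of the alveolar wall, was at 0.785 and 0.731 against 2.35 and 3.64 CPM (1.95, adjusted p = 0.0782). Myl9 in ciliated-like nuclei was at 0.323 and 0.353 against 3.56 and 2.28 CPM (2.97, adjusted p = 0.084). Acta2 in the same ciliated-like nuclei went the other way, by -0.41 (adjusted p = 0.672), and Cnn1, too sparse to be tested, gave 2, 1, 16 and 12 UMIs.

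The share of barcodes with an Acta2 UMI was compared in place of Acta2-positive SMCs. It was 0.672%, 0.581%, 1.48% and 1.18% in WT1, WT2, Tg1 and Tg2, from 181, 224, 375 and 520 barcodes. The difference of 0.706 percentage points gave p = 0.33 in the two-sided exact permutation test, the smallest p that 2 mice against 2 allow. In AT1-like nuclei, which should lack the gene, the share was 0.543%, 0.709%, 0.629% and 1.12%, at median depths of 4388.5, 4493, 3353 and 4063 UMIs beside 1860, 1961, 2512 and 2530 over all barcodes. Unthinned, the share over all barcodes was below the AT1-like one in WT2 and close to it in WT1 and Tg2. In EC-like nuclei the share was 1.36%, 0.413%, 2.82% and 1.96%. With every barcode thinned to 1500 UMIs, the shares over all barcodes were 0.444%, 0.383%, 0.814% and 0.654%, a difference of 0.320 points. Thinned in the same way, the AT1-like shares were 0.119%, 0.290%, 0.277% and 0.373%, lower than those over all barcodes in each of the 4 mice. Most barcodes with an Acta2 UMI had no class, namely 137, 173, 216 and 350 of those in WT1, WT2, Tg1 and Tg2. The thinned share of barcodes with no class was 0.458%, 0.393%, 0.856% and 0.671%. What these barcodes hold was not determined, so that the share does not count contractile cells.

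Barcodes rich in contractile transcripts were few. Those with at least 4 member UMIs from at least 3 members, and with more than free RNA would give, numbered 7, 8, 25 and 18 in WT1, WT2, Tg1 and Tg2, or 2.60, 2.08, 9.89 and 4.09 per 10000 barcodes. They were chosen on the members' own counts, and these numbers are given as a description. Of the 25 in Tg1, 7 were EC-like, 7 had no class and 7 had markers of several classes. Of the 18 in Tg2, 5 were EC-like, 5 had no class, 2 had several and 2 were pericyte-like. In WT2, 3 of the 8 were pericyte-like and 1 was EC-like, and in WT1 none was either. Only 1, 0, 1 and 1 of them were SMC-like.

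The other genes of the contractile pathway were followed in lists that share no gene with the members. Of 8 factors around SRF and myocardin, 1 rose and 0 fell over all barcodes with 1500 or more UMIs, where 4.08% of all genes were called. That gene was Myocd, the myocardin that switches the members on in muscle, at 1.09 and 1.07 CPM in WT and 7.42 and 4.08 CPM in Tg mice (2.35 ± 0.40, adjusted p = 0.0437). It is a gene of 96.4 kb, and is also 1 of the 11 SMC markers. Without Tg1 or without Tg2 the call was lost (adjusted p = 0.356 and 0.118). Much of the Myocd was in mesothelial-like nuclei, with 10 of 74, 35 of 117, 211 of 556 and 198 of 579 UMIs of WT1, WT2, Tg1 and Tg2. There it was at 6.63 and 10.9 CPM in WT and 58.2 and 27.3 CPM in Tg mice (2.22 ± 0.46, adjusted p = 0.0323), and none of the 3 members tested there was called. This call was lost without Tg1 (adjusted p = 0.168) and with the droplet profile subtracted (adjusted p = 0.089). In droplets Myocd was at 1.62, 0.560, 1.27 and 2.57 CPM, with overlap.

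In the droplets, the factor list gave 1 rise, Klf4 (1.01 ± 0.27, adjusted p = 0.0396), and 2 falls, Mrtfa (-1.17 ± 0.25, adjusted p = 0.0245) and Mrtfb (-1.12 ± 0.24, adjusted p = 0.0247). Over all genes tested in the droplets, 14.5% were called higher and 11% lower in Tg, so that 1 and 2 of 8 were near the background. Klf4, which is known to repress contractile genes, is short at 5.3 kb, and the myocardin-related factors are long at 178.5 and 161.5 kb. In EC-like nuclei, Klf4 was at 76.2 and 84.9 CPM in WT and 178 and 131 CPM in Tg mice (0.91 ± 0.21, adjusted p = 0.0448). Of the 8 factors, it alone was called there, where 7.02% of all genes were called higher, a call that was lost without Tg1 (adjusted p = 0.287), at 2500 or more UMIs (0.0651) and with the droplet profile subtracted (0.0897). Over the 15 classes, Klf4 was called higher in 9, by 0.91 to 1.39, among them AT1-like, AT2-like and B cell-like nuclei.

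Of 10 genes around myosin light chain phosphorylation, 1 rose and 2 fell in the droplets, near the same shares of all genes, and 0 of 10 were called over all barcodes or in EC-like nuclei. Ppp1r14a, an inhibitor of myosin phosphatase and an SMC marker here, was at 5.04 and 4.48 CPM in the WT droplets and 29.3 and 18.0 CPM in the Tg droplets (2.64 ± 0.41, adjusted p = 0.0178). Prkg1, the cGMP-dependent kinase that relaxes smooth muscle, fell by 1.31 on the log2 scale (adjusted p = 0.0192) and Ppp1r12b, a subunit of the phosphatase, by 0.90 (adjusted p = 0.037). Ppp1r14a spans 4.1 kb, and Prkg1 and Ppp1r12b span 1200.8 and 201.3 kb, so that the directions follow the length bins above. In pericyte-like nuclei, where Prkg1 was at 6013, 6463, 4024 and 4577 CPM, it was not called.

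Of 11 genes of calcium entry and release, 9 were tested in the droplets, and 4 fell, where 11% of all genes did. The largest falls were Cacna1c, the L-type calcium channel (-1.90 ± 0.36, adjusted p = 0.0204), and Ryr2, a calcium release channel (-1.23 ± 0.30, adjusted p = 0.0306). Of 17 genes of the thin filament and cytoskeleton, 4 rose and 2 fell, beside 14.5% and 11% of all genes, with the largest rises in Tpm2 (a tropomyosin; 2.84 ± 0.57, adjusted p = 0.0215) and Myl6 (a myosin light chain of muscle and other cells; 1.68 ± 0.43, adjusted p = 0.0344), and the largest fall in Lpp (-1.46). Tpm2 reached the level of the filter in the Tg mice alone, at 1.08 and 1.40 CPM in the WT droplets and 9.13 and 4.62 CPM in the Tg droplets. A higher value in Tg was thus built into its being tested. Over all barcodes with 1500 or more UMIs, neither list had a call by edgeR. Tpm2 (9.9 kb) and Myl6 (3.0 kb) are short, and Cacna1c, Ryr2 and Lpp span 553.8 to 610.1 kb.

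Of the same 17 genes, 2 were called higher in EC-like nuclei, where 7.02% of all genes tested were. In EC-like nuclei, Myl6 was at 163 and 197 CPM in WT and 497 and 408 CPM in Tg mice (1.31 ± 0.20, adjusted p = 0.0149). Myh10, a non-muscle myosin heavy chain of 124.7 kb, was at 13.8 and 16.0 against 42.2 and 32.4 CPM (1.29 ± 0.25, adjusted p = 0.0265). In pericyte-like nuclei, Myl6 was the 1 called of 13 tested, where 4.71% of all genes were called (1.29 ± 0.28, adjusted p = 0.0179), at 166 and 197 against 455 and 372 CPM. Myl6 was called higher in 14 of the 15 classes, all but the adventitial fibroblast-like one, by 0.99 to 1.44. In EC-like nuclei, the calls of Myl6 and Myh10 were lost without Tg1 (adjusted p = 0.103 and 0.208) and with the droplet profile subtracted (adjusted p = 0.196 and 0.145).

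The genes whose levels were most like the mean of the 10 members, each first scaled to the same mean and spread, included markers of pericytes. Over 64 sums of a class in a mouse (17 classes, 20503 genes), the highest Pearson correlations of log2(CPM + 1) were those of Sparcl1 (0.72), Vsnl1 (0.71), Ppp1r14a, Gm16029 and Pde5a (0.70 each), Higd1b and Art3 (0.69 each), Bcas3os2 and Cox4i2 (0.66 each) and Klhl23 (0.65). The sums share libraries, depth and free RNA, and the correlations are a description. Vsnl1 averaged 292 CPM in pericyte-like nuclei beside 3.64 in EC-like nuclei, and Pde5a, the cGMP phosphodiesterase, 1731 beside 52.2. Higd1b and Cox4i2 are among the markers that defined the pericyte-like class, and Ppp1r14a among those of the SMC-like one. Of the members themselves, Myh11 (0.78), Des (0.68) and Acta2 (0.67) were closest to that mean, and Cnn1 (0.39) and Actg2 (0.45) farthest. Each member is part of that mean, so that its value cannot be set beside those of the other genes.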

How the data were processed

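Nuclei of 4 lungs were profiled with 10x Genomics chemistry. The authors deposited unfiltered UMI counts per gene and barcode for each mouse; the submitters' processing notes name Cell Ranger 6.1.1 and mm10, and the study's methods state that introns were counted. The members, lists and markers were chosen with earlier results of these data known. Barcodes with 1500 or more UMIs were assigned to a class when at least 4 UMIs of at least 3 of its markers exceeded the droplet profile (log likelihood ratio of at least 8, and 2 times the next class); those with markers of several classes were left out, which stood in for a doublet caller. Sums per mouse were scaled by TMM, filtered with a minimum of 10 UMIs and compared with edgeR 4.0.16 (quasi-likelihood test, Benjamini-Hochberg over all genes tested, threshold 0.05), in R 4.3.3; nuclei were set against droplets with mouse as a term. The fits were tested on simulated data. All members were named, and of each other list the 2 largest rises and falls among those called. Some genes of these lists are not reported here. Alternatives were DESeq2 1.42.0, RLE factors, no filter, a block for the replicate number, leaving out each mouse, other UMI limits, thinning and subtraction of the droplet profile; sums of classed barcodes and droplets of over 800 and up to 1200 UMIs were added after seeing the data. In total 125261739 to 182014706 UMIs were counted per mouse. Intervals and limits cover counting error only. Gene spans came from RefSeq (GRCm38.p6) and matched 88.5% to 95.2% of genes tested; UTRs came from GENCODE vM21.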

Additional observations from a re-analysis of the deposited data

Results flagged for a closer look

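The sign of the Myh11 difference was not the same in pericyte-like nuclei as in EC-like, AT2-like and ciliated-like nuclei. In pericyte-like nuclei both Tg mice (113 and 113 CPM) were under both WT mice (153 and 115 CPM), with a difference of -0.11 ± 0.31 (log2, SE; adjusted p = 0.916 by edgeR), which turned to 0.05 without WT1. In EC-like nuclei both Tg mice (10.8 and 5.11 CPM) were above both WT mice (1.42 and 3.56 CPM). In AT2-like and ciliated-like nuclei the Tg mice were also above the WT mice, and Myh11 passed the filter on low counts through the Tg mice alone. The difference between the classes was not tested, and Myh11 passed the test of genotype in none of them.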

How the results depend on the processing

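Over all barcodes, the count of 0 called members became 1 with DESeq2, where 15.6% of all genes were called in place of 4.08%. It also became 1 with no filter, beside 2525 of 28083 genes, and at 1000 or more UMIs, beside 1702 of 21499. The same count of 1 was found at 2500 or more UMIs (beside 1027 of 19926 genes) and in classed barcodes alone (beside 1131 of 19064). With the replicate block it became 2 (Cnn1 and Myl9), where 12.8% of all genes were called. In droplets, 3 became 1 with DESeq2 and 4 with the replicate block (also Des), where 13.1% and 18.2% of all genes were called higher in place of 14.5%. It became 5 in droplets with over 800 and up to 1200 UMIs, where 17.3% were. For nuclei against droplets, 3 became 5 (with Myl9 and Des) at 2500 or more UMIs and in classed barcodes alone. There the share of all genes called lower also rose, from 18.3% to 26.7% and 29.3%. In the classes, 1 became 0 with DESeq2, with the droplet profile subtracted and at 2500 or more UMIs. It became 12 with no filter, of 136 member tests in place of 32, beside 7.35% of all gene tests. With the replicate block it became 4 (also Acta2 and Des in EC-like and Myl9 in ciliated-like nuclei), with 9.91% of all gene tests called in place of 6.04%. The difference in the share of SMC-like nuclei turned to 0.0289 points at 2500 or more UMIs, and ranged from -0.0279 to 0.00190 with a mouse left out, turning positive without WT1. The Acta2 share differed by 0.555 to 0.857 points with a mouse left out. The causes of these shifts were not tested. The labels tie the replicate numbers to no shared source, and with 2 pairs the deviations of same-numbered mice correlated at 0.34 over all barcodes, 0.10 in droplets, 0.19 in EC-like and 0.08 in pericyte-like nuclei, which does not settle whether the numbers pair the mice. Of 436 single member values under an alternative, 371 kept their direction and side of the threshold, 20 lost and 34 gained a call, and 11 turned. With a mouse left out, Synpo2 ranged from -0.43 to 0.04 in mesothelial-like nuclei (positive without Tg2) and from -0.30 to 0.15 against droplets (positive without Tg1), where it was 0.0 in classed barcodes. Myh11 ranged from -0.16 to 1.43 and Lmod1 from -1.57 to 1.25 in droplets, Myh11 from -0.30 to 0.11 against droplets and Smtn from -0.04 to 0.91 in EC-like nuclei, each turned without Tg1. In pericyte-like nuclei, Myh11 ranged from -0.34 to 0.05 (turned without WT1) and Des from -0.51 to 0.86 (-0.15 without WT1, -0.51 without Tg1), with Des at -0.06 at 2500 or more UMIs. Where a mouse was left out, the lone mouse of a genotype was assumed to vary like the others. Droplets with 100 to under 300 UMIs gave no usable sum, with 18999 to 20456 UMIs per mouse and 0, 0, 3 and 0 member UMIs.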
